A study of Mus musculus with 31 samples.

Results

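S1pr1, Selplg, Cd44 and Ly6c2 encode cell surface proteins that T cells use to leave a tissue, to attach to vessel walls or matrix, or that mark antigen-experienced cells. They were taken by symbol from a table of 485 genes, of which they are 4, and each was present once. Their expression was followed in 31 libraries of T cells that had been sorted from choroid plexus, the vascular fringe inside the ventricles of the brain whose epithelium secretes cerebrospinal fluid. All donors were female C57BL6/J mice with no engineered allele, housed from 4 weeks of age for 4 weeks either in EE, an enriched environment of roomy cages holding wheels, toys and tunnels, or in SE, the standard environment of smaller, bare cages. CD4+ T cells gave 9 libraries in EE and 8 in SE, and CD8+ T cells gave 7 in EE and 7 in SE, each made from 6 to 20 sorted cells. The cells were gated as positive for CD45, CD3 and either CD4 or CD8 and negative for CD11b, a surface protein of myeloid cells, and not on CD44, Ly6C or any other memory marker, so that the sort did not select memory cells. Ccr7, Tcf7 and Lef1, which are known for naive and central memory T cells, were not among the 485 genes. These are a subset of all genes and held only 13 of 33 listed activation and memory genes. The absence of a gene from the table therefore does not show whether naive or memory cells were present. According to the labels, the mice of one environment shared a cage within an experiment, so effects of cage and of environment cannot be told apart.

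The S1pr1 protein is a receptor for sphingosine-1-phosphate (S1P), a lipid that is abundant in blood and lymph and scarce inside tissues, and T cells follow this gradient when they leave lymphoid organs. Selplg encodes PSGL-1, the ligand through which leukocytes roll on P-selectin of activated endothelium. CD44 binds hyaluronan of the extracellular matrix and rises after T cells have met antigen. Ly6C, the product of Ly6c2 and of its neighbour Ly6c1, is a small protein held in the membrane by a lipid anchor that is found on many memory CD8+ T cells and on monocytes.

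In GRCm38 coordinates, the genes lie on the minus strand of 4 chromosomes. S1pr1 spans chr3:115710433-115715072, Selplg chr5:113818536-113832644, Cd44 chr2:102811141-102901665 and Ly6c2 chr15:75108158-75111970. A small nuclear RNA gene, Gm23731, lies inside Cd44 on the opposite strand, and no other gene overlaps the members. Counting reads per gene is less certain for Ly6c2 than for the other members, because of its near copy Ly6c1 at chr15:75044018-75048830. Of the 31-base words in the Ly6c2 transcripts, 52.5% also occur in a transcript of another gene and 48.2% in Ly6c1, against 0.365% with any other gene for S1pr1, 0.0513% for Cd44 and 0% for Selplg. These shares are of whole transcripts, and the share of Ly6c2 reads that were ambiguous was not measured. The coding sequences of Ly6c2 and Ly6c1 are 393 bases each, are 97.7% identical and differ at 9 bases, 6 of them in the first 90. Those 90 bases are shown, 5′ to 3′ in the sense of the transcript, to let the reader see how little separates the pair. Capitals mark the bases that differ.
Ly6c2: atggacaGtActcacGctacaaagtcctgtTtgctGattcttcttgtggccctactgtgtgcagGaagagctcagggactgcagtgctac
Ly6c1: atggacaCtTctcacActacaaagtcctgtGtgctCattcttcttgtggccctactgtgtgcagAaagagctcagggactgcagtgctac
The longest stretch without a difference in the coding sequence is 188 bases. Values of Ly6c2 therefore may include reads of Ly6c1 or miss reads of its own, and Ly6c1 itself was not analysed here.

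The values are normalised UMI counts, in which a UMI (unique molecular identifier) tags 1 captured RNA molecule and the authors divided each library by a size factor. The UMI total over the 485 genes ranged from 1910 to 26395 per library (median 5097), so that a library without a UMI of a gene was compatible with a normalised count of up to 0.655 to 8.81 (a floor of 3 UMIs, for counting error only). The sample titles carry a first number that the labels do not explain and that was treated as a possible experiment series: the 19 libraries with number 1 held 1910 to 10089 UMIs and the 12 with number 2 held 7657 to 26395. Cd8a and Cd8b1 had no UMI in any CD4 library and Cd4 had none in any CD8 library, but the authors had left out CD4 samples with Cd8a or Cd8b transcripts, so the absence of these genes is no check of the sort in CD4 libraries. Of 10 T cell genes checked, 7 were in the table, and they summed to 45.6 to 105.0 normalised counts per library. Ttr and Enpp2, the 2 of 8 choroid plexus epithelium genes in the table, summed to 74.9 to 312.0, with group means of 182.0 in CD4 EE, 154.0 in CD4 SE, 162.0 in CD8 EE and 114.0 in CD8 SE. Of 16 monocyte and macrophage genes only Cst3 was in the table, with group means of 6.40, 6.41, 10.7 and 4.41 in the same order. The cells that this RNA came from were not determined, so Cst3 alone is no measure of myeloid RNA. Lists for endothelium, B cells, natural killer cells and erythrocytes had no gene in it. In pools of this kind fewer expressing cells and less RNA per cell cannot be told apart.

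The clearest contrast among the members was between the T cell types. S1pr1 and Cd44 were higher in CD4+ T cells, Ly6c2 was higher in CD8+ T cells, and Selplg did not pass the test. With the environment held fixed, 36 of 485 genes (7.42%) had an adjusted p under 0.05 (limma, adjusted by Benjamini-Hochberg across the table), 21 of them higher in CD4 (4.33%) and 15 lower (3.09%), and these included 3 of the 4 members. An unadjusted p under 0.05 was reached by 108 genes (22.3%), with no further member. Ttr differed by 0.42 ± 0.169 (SE; adjusted p 0.121) and Cst3 by -0.07 ± 0.322 (SE; adjusted p 0.933), and the part of epithelial or myeloid RNA in the members' differences was not tested. The sort took CD11b-negative cells, and how much myeloid RNA remained after it was not tested.

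S1pr1, the egress receptor, was detected in all 17 CD4 libraries and in 10 of 14 CD8 libraries, with 85 and 23 UMIs in all. In CD4 libraries the normalised count ranged from 1.35 to 13.0 with a median of 3.42, and in CD8 libraries from 0 to 5.89 with a median of 0.930. The groups overlapped, but every CD4 library lay above the CD8 median and 9 of 14 CD8 libraries lay below the lowest CD4 library. The means were 4.71 ± 3.08 (SD, n = 17) and 1.51 ± 1.79 (SD, n = 14), a ratio of 3.11. The CD8 libraries without a UMI of S1pr1 had floors of 1.17 in EE and of 5.28, 6.44 and 6.79 in SE. In these SE libraries a level like the CD4 mean was not excluded. On the log2(value + 1) scale the difference was 1.30 ± 0.304 (SE), a 2.46-fold change of value + 1 (95% confidence interval 1.61 to 3.76, limma adjusted p 0.00407). Where libraries were separated by first title number, the difference was 1.214 for number 1 (adjusted p 0.115) and 1.198 for number 2 (adjusted p 0.0192).

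Among libraries with number 2, which mostly held more UMIs, S1pr1 ran from 1.39 to 4.32 in the 6 CD4 libraries and from 0 to 1.36 in the 6 CD8 libraries. The lowest of these CD4 libraries held 4 UMIs of S1pr1 and the highest CD8 library 3. How many other genes were apart in this subset was not counted. Within SE the difference of S1pr1 was 1.64 (adjusted p 0.0401), and within EE it was 0.98 (adjusted p 0.284). All 8 CD4 SE libraries lay above the mean of CD8 SE, while 1 of the 9 CD4 EE libraries lay below that of CD8 EE.

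Cd44, the hyaluronan receptor, was detected in all 17 CD4 libraries (116 UMIs) and in 11 of 14 CD8 libraries (36 UMIs). Its normalised count ranged from 1.77 to 9.37 with a median of 5.69 in CD4, and from 0 to 4.52 with a median of 1.66 in CD8. Here 11 of 17 CD4 libraries were above the highest CD8 library, and none fell below the CD8 median. The means were 5.61 ± 2.36 (SD, n = 17) in CD4 and 1.95 ± 1.60 (SD, n = 14) in CD8, a ratio of 2.87. The CD8 libraries without a UMI of Cd44 had floors of 2.31 in EE and of 6.2 and 6.44 in SE. In these SE libraries a level like the CD4 mean was not excluded. The log2 difference was 1.30 ± 0.286 (SE), or 2.47-fold for value + 1 (95% confidence interval 1.66 to 3.68, limma adjusted p 0.0019). The difference was 1.00 for number 1 (adjusted p 0.176) and 1.62 for number 2 (adjusted p 0.00608), and it was 1.36 within EE (adjusted p 0.0875) and 1.25 within SE (adjusted p 0.146).

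Ly6c2 had the opposite pattern. Its normalised count ranged from 3.52 to 25.5 with a median of 10.8 in CD8 libraries, all 14 of which held at least 2 UMIs, and from 0 to 14.9 with a median of 2.94 in CD4 libraries, of which 3 held none. The CD4 libraries fell below the lowest CD8 library in 10 of 17 cases, and 2 of them exceeded the CD8 median. The means were 12.1 ± 6.57 (SD, n = 14) in CD8 and 4.55 ± 4.26 (SD, n = 17) in CD4, a ratio of 2.65. The CD4 vs. CD8 difference was -1.50 ± 0.336 (SE) on the log2 scale, which is 2.82-fold for value + 1 (95% confidence interval 1.77 to 4.51, limma adjusted p 0.00238). It was -1.76 for number 1 (adjusted p 0.0164) and -1.23 for number 2 (adjusted p 0.133), and -2.14 within SE (adjusted p 0.00623) against -0.89 within EE (adjusted p 0.305). The 3 CD4 libraries without a UMI were all from SE mice with number 1, with floors of 2.84, 5.26 and 7.62, so a level like the CD4 mean was not excluded in 2 of them.

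Selplg, the selectin ligand, was detected in all 31 libraries. It ranged from 1.77 to 17.8 with a median of 7.53 in CD4 and from 2.26 to 13.0 with a median of 9.44 in CD8, so that the ranges were nested. The log2 difference was -0.20 (95% confidence interval -0.70 to 0.30, limma adjusted p 0.688). For value + 1, this leaves room for CD8 up to 1.62-fold or CD4 up to 1.23-fold above the other.

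**Figure D1:**
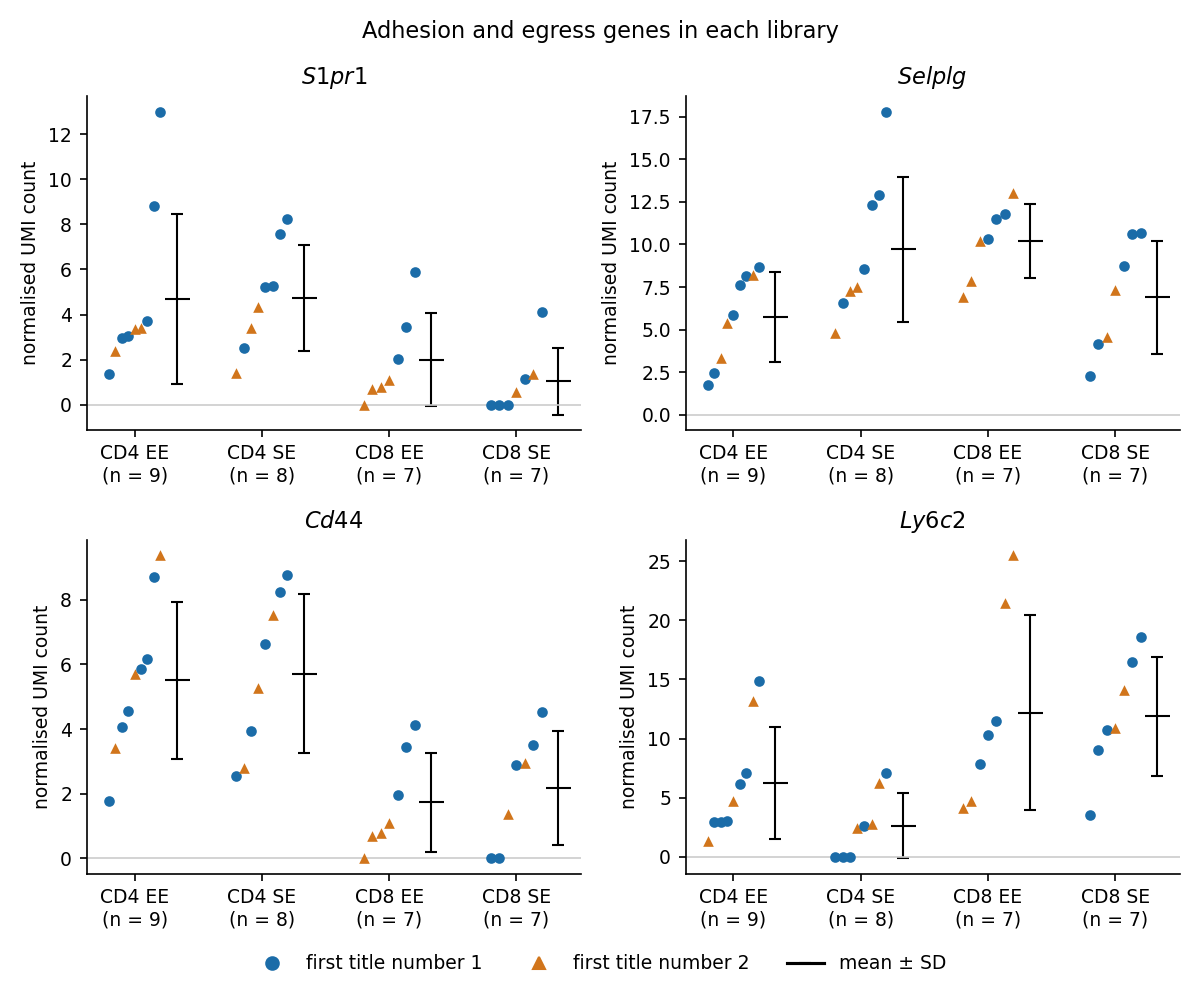
Normalised UMI counts (vertical axis) of S1pr1, Selplg, Cd44 and Ly6c2 in the 4 groups of libraries, with 1 point per library, circles for first title number 1, triangles for number 2 and bars for the mean ± SD. S1pr1 and Cd44 sit higher in both CD4 groups, Ly6c2 sits higher in both CD8 groups, and Selplg overlaps across all 4.

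Ordered by mean level, the groups ran as follows. S1pr1 was 4.75 in CD4 SE, 4.67 in CD4 EE, 1.99 in CD8 EE and 1.04 in CD8 SE, and no neighbouring groups differed by more than the larger of their SDs. Cd44 was 5.71 in CD4 SE, 5.51 in CD4 EE, 2.18 in CD8 SE and 1.73 in CD8 EE, and only the step from CD4 EE to CD8 SE exceeded the SD. Ly6c2 was 12.2 in CD8 EE, 11.9 in CD8 SE, 6.25 in CD4 EE and lastly 2.63 in CD4 SE, and only the step from CD8 SE to CD4 EE exceeded it. For Selplg, in contrast, the order mixed the cell types: 10.2 in CD8 EE, 9.71 in CD4 SE, 6.90 in CD8 SE and 5.72 in CD4 EE, with no step beyond the SD.

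Libraries of both cell types carried the same environment, first title number and animal number for 10 mice, and these were compared as pairs. One of the 10 is less certain: its CD8+ T cells are CD8 SE replicates 5 and 6, whose titles name animal 5 and whose descriptions name 5 and 6 together, so that they are either from 1 mouse or a pool. S1pr1 was higher in the CD4+ T cells of 9 of 10 mice, with a mean log2 difference of 1.43 ± 1.27 (SD, n = 10). The exception was an EE mouse with 3.70 in CD4 and 5.89 in CD8. The largest gap was in an SE mouse with 8.23 in CD4 and no UMI in CD8, where the floor was 6.79. Cd44 was higher in CD4 in 9 of 10 mice as well, by 1.10 ± 0.847 (SD), and the other mouse had 2.54 in CD4 and 2.90 in CD8. Ly6c2 was higher in CD8 in 9 of 10 mice, and the CD4 minus CD8 difference was -1.38 ± 1.48 (SD). The widest difference of Ly6c2 was in an SE mouse with no UMI in CD4 and 18.6 in CD8, and the reversed one in an EE mouse with 13.2 in CD4 and 4.69 in CD8. Selplg was higher in CD8 in 7 of 10 mice: in all 5 EE mice, and in 2 of 5 SE mice. Without the uncertain mouse, the direction was the same in 8 of 9 mice for S1pr1, Cd44 and Ly6c2 and in 7 of 9 for Selplg.

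In a fit with the mouse as a paired block, over the 21 libraries of these mice, the CD4 vs. CD8 difference was 1.39 for S1pr1 (limma adjusted p 0.0346) and -1.36 for Ly6c2 (adjusted p 0.034). For Cd44 it was 1.07 and missed the threshold (adjusted p 0.0555), and the number of genes called over the table was 23 in place of 36. With the uncertain mouse left out as well (18 libraries), the block gave 1.55 for S1pr1 (adjusted p 0.0537), 1.19 for Cd44 (adjusted p 0.0796) and -1.43 for Ly6c2 (adjusted p 0.0654), none of them called, and 13 genes were called over the table. With the mouse as a random block over all 31 libraries, Cd44 had 1.29 and kept its call (adjusted p 0.00132).

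**Figure D2:**
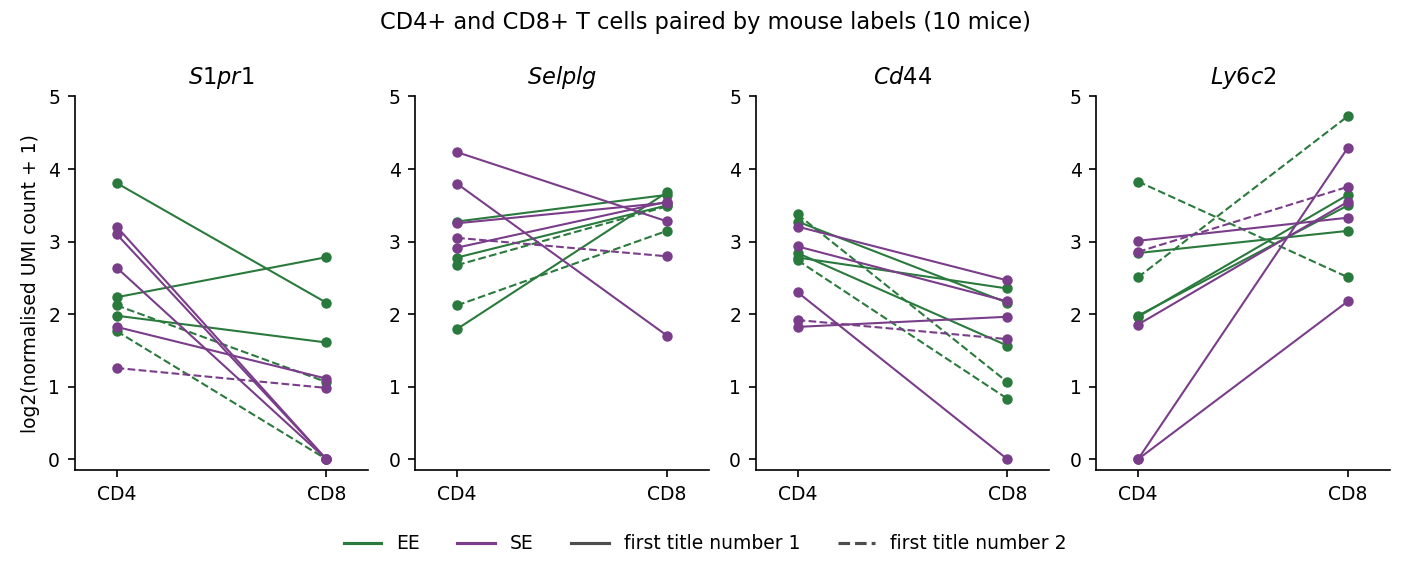
Log2(normalised UMI count + 1) in the CD4+ and CD8+ T cells of each of 10 mice, paired by their labels and joined by a line, in green for EE and purple for SE, solid for first title number 1 and dashed for number 2. Lines fall for S1pr1 and Cd44 in 9 of 10 mice, rise for Ly6c2 in 9 of 10, and cross for Selplg.

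**Figure D3:**
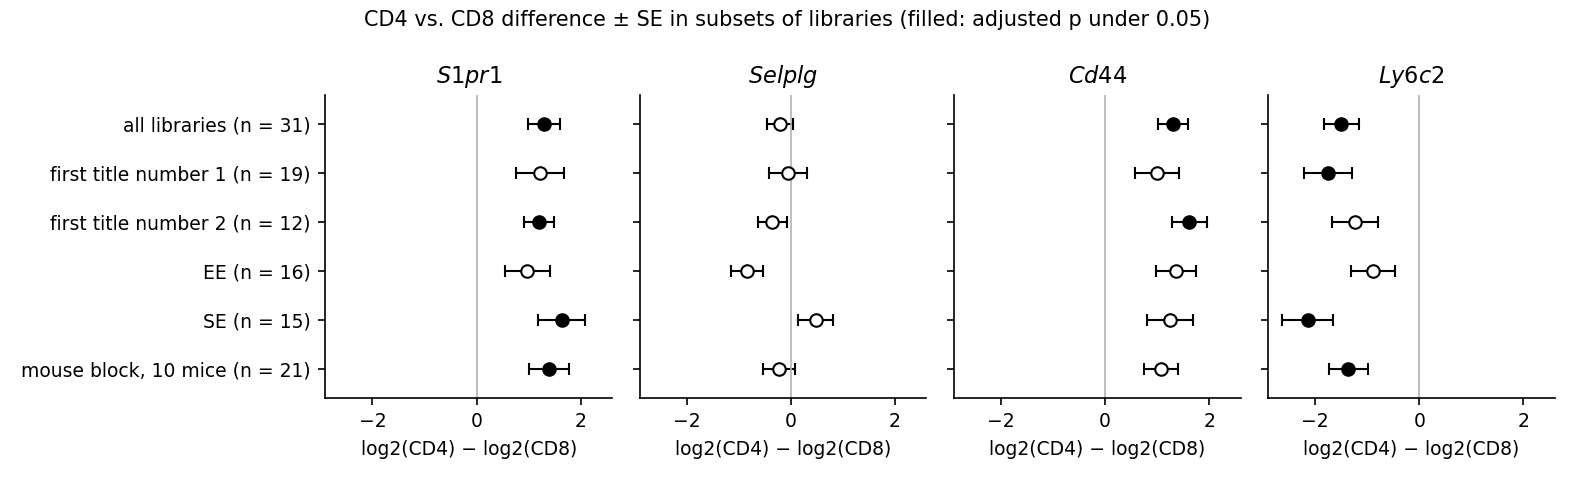
Log2 difference between CD4 and CD8 libraries ± SE (horizontal axis) for each member, over all libraries, within each first title number, within each environment, and with the mouse as a block; filled points have an adjusted p under 0.05. The points of S1pr1 and Cd44 stay right of 0 and those of Ly6c2 left of 0, while Selplg is -0.84 within EE and 0.47 within SE.

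The housing comparisons asked whether EE changed these genes within a T cell type. No gene of the table passed the adjusted threshold for EE vs. SE in CD4 (0 of 483), in CD8 (0 of 484) or over both cell types (0 of 485), so 0% was called in each, and no member was called. The count models edgeR and DESeq2 each called 1 gene in CD4, which was no member, and 0 genes in CD8, over both cell types and for the interaction. An unadjusted p under 0.05 was reached by 18 genes (3.73%) in CD4, among them Selplg and Ly6c2, by 12 (2.48%) in CD8 with no member, and by 21 (4.33%) over both with no member. Enpp2 was also among the 18, at 0.60 ± 0.248 (SE) higher in EE (limma unadjusted p 0.0216). Ttr differed by 0.22 ± 0.21 (SE) in CD4. Cst3 was among the 12, at 1.25 ± 0.472 (SE) higher in EE (limma unadjusted p 0.014), against 0.32 ± 0.40 (SE) in CD4. The part of epithelial or myeloid RNA in the housing differences was not tested.

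S1pr1 and Cd44, the members that were higher in CD4, were not called between environments in either cell type. In CD4 libraries S1pr1 ranged from 1.35 to 13.0 (median 3.35) in EE and from 1.39 to 8.23 (median 4.78) in SE, and the log2 difference was -0.12 ± 0.385 (SE; 95% confidence interval -0.90 to 0.67). Cd44 ranged from 1.77 to 9.37 (median 5.69) in EE and from 2.54 to 8.77 (median 5.96) in SE, with a difference of -0.05 ± 0.341 (SE; interval -0.74 to 0.65). EE and SE overlapped for both genes, with 2 EE libraries above and 1 below every SE library for S1pr1, and 1 above and 1 below for Cd44. In CD8 libraries the differences were 0.54 ± 0.540 (SE) for S1pr1 and -0.16 ± 0.525 (SE) for Cd44. The intervals, -0.57 to 1.66 and -1.24 to 0.92, were wide, with 23 and 36 UMIs of the genes in all 14 libraries.

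Selplg had differences of opposite sign in the T cell types, neither of them called. In CD4 it ranged from 1.77 to 8.69 (median 5.87) in EE and from 4.80 to 17.8 (median 8.03) in SE. All 9 EE libraries were below the SE mean, and 3 of them were below every SE library. In CD8 it ranged from 6.92 to 13.0 (median 10.3) in EE and from 2.26 to 10.7 (median 7.35) in SE. There all 7 EE libraries were above the SE mean, 3 of them above every SE library. The log2 difference was -0.70 ± 0.334 (SE) in CD4 (unadjusted p 0.0435, limma adjusted p 0.992) and 0.61 ± 0.308 (SE) in CD8 (unadjusted p 0.0581, adjusted p 0.950). Within first title numbers 1 and 2 it was -0.98 and -0.23 in CD4 and 0.72 and 0.59 in CD8.

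The difference between the EE effects, tested as an interaction over all 31 libraries, called 0 of 485 genes (0%), and 12 (2.47%) had an unadjusted p under 0.05. Selplg was 1 of these 12 and had the smallest unadjusted p of the table. For S1pr1 the interaction was -0.66 ± 0.607 (SE), for Cd44 0.11 ± 0.579 (SE) and for Ly6c2 1.26 ± 0.653 (SE), with adjusted p from 0.976 to 0.982.

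Ly6c2 was the other member with a low unadjusted p in CD4. It ranged from 1.37 to 14.9 (median 4.69) in EE and from 0 to 7.06 (median 2.51) in SE, and 8 of 9 EE libraries were above the SE mean. The 2 highest EE libraries, at 14.9 and 13.2, came 1 from each first title number, and the 3 SE libraries without a UMI all had number 1. The log2 difference was 1.17 ± 0.486 (SE; 95% confidence interval 0.18 to 2.17; unadjusted p 0.0221, limma adjusted p 0.992), and it was 1.66 within number 1 and 0.35 within number 2. In CD8 it ranged from 4.12 to 25.5 (median 10.3) in EE and from 3.52 to 18.6 (median 10.9) in SE, and the difference was -0.08 ± 0.366 (SE).

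**Figure D4:**
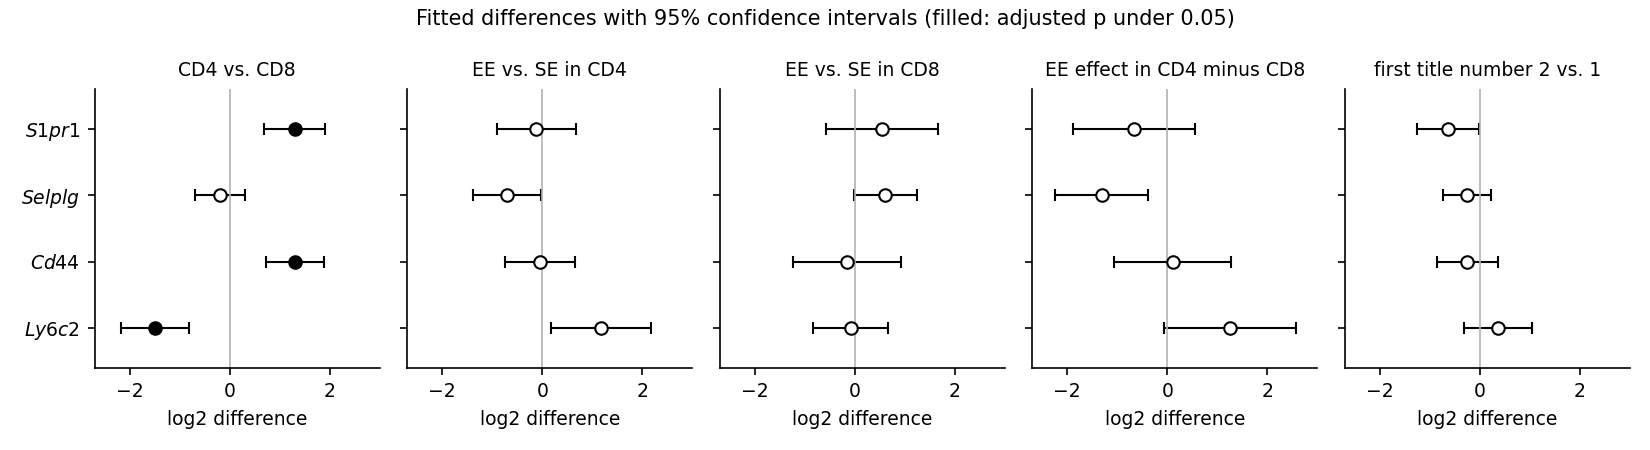
Fitted log2 differences of the members with 95% confidence intervals in 5 comparisons, filled where the adjusted p is under 0.05. Filled points occur only for CD4 vs. CD8, and Selplg lies left of 0 for EE vs. SE in CD4 and right of 0 in CD8.

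The first title number ran with depth, although the UMI totals of the libraries with either number overlapped. It called 52 of 485 genes (10.7%), with 34 higher (7.01%) and 18 lower (3.71%) in number 2. An unadjusted p under 0.05 was reached by 128 genes (26.4%). No member was among the 52. S1pr1 came nearest: it averaged 4.13 ± 3.45 (SD, n = 19) in number 1 and 1.90 ± 1.42 (SD, n = 12) in number 2, with a log2 difference of -0.64 ± 0.306 (SE; unadjusted p 0.043, limma adjusted p 0.172). Count models on the recovered UMIs called this difference, at -1.01 with edgeR (adjusted p 0.0385) and -1.13 with DESeq2 (adjusted p 0.0116).

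Other genes of T cell trafficking were set beside the members. Of 130 genes listed, 48 were in the table. In CD4 vs. CD8, 3 of the 48 were called higher and 3 lower (12.5% of the list, against 7.42% of all genes), and the median log2 difference was 0.16 over the list and 0.07 over all genes.

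For egress and the S1P axis, 2 of 12 listed genes were in the table and neither was called. Klf2, a transcription factor that drives S1pr1 transcription in T cells, differed by -0.19 ± 0.359 (SE) between CD4 and CD8, and Gnai2, the G protein subunit that carries S1P receptor signals, by 0.63 ± 0.360 (SE). None of the 12 listed selectin and glycosylation genes that act with PSGL-1 was in the table. Of 20 integrin and adhesion genes 5 were measured and none was called, with log2 differences from 0.12 for Cd53 to 0.26 for Cd2.

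In the Ly6 and lipid-anchored group, 3 of 6 genes were measured and 1 was called. Ly6e, a relative of Ly6c2, was higher in CD4, at 29.7 ± 7.64 (SD) against 18.8 ± 7.84 (SD) in CD8, a log2 difference of 0.72 (limma adjusted p 0.0119), the opposite of Ly6c2. Ly6a differed by 0.69 ± 0.372 (SE) and Thy1 by -0.53 ± 0.236 (SE), and neither was called.

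Among chemokines and their receptors, 2 of the 4 measured genes were called and both were lower in CD4. Ccl5, a chemokine stored by effector and memory CD8+ T cells, was at 7.03 ± 5.32 (SD) in CD4 and 48.4 ± 19.1 (SD) in CD8, a log2 difference of -2.85 (limma adjusted p 1.83e-12). Xcl1, which attracts cross-presenting dendritic cells, was at 2.55 ± 3.57 (SD) and 7.08 ± 4.98 (SD), a difference of -1.51 (adjusted p 0.00976). The receptors Cxcr3 and Cxcr6 differed by 0.09 and 0.46 and were not called.

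Of 35 cytoskeleton and migration genes 21 were measured and 18 had a positive CD4 vs. CD8 difference, as had 275 of all 485 genes (56.7%). The only one called was Tmsb4x, an actin-binding peptide, which was 0.48 higher (adjusted p 0.0475). Of 33 activation and memory genes 13 were measured. Junb, a subunit of the AP-1 transcription factor, was 1.13 higher in CD4 (adjusted p 0.00178), and Nkg7, a cytotoxic granule protein, differed by -1.83 (adjusted p 9.84e-07).

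**Figure D5:**
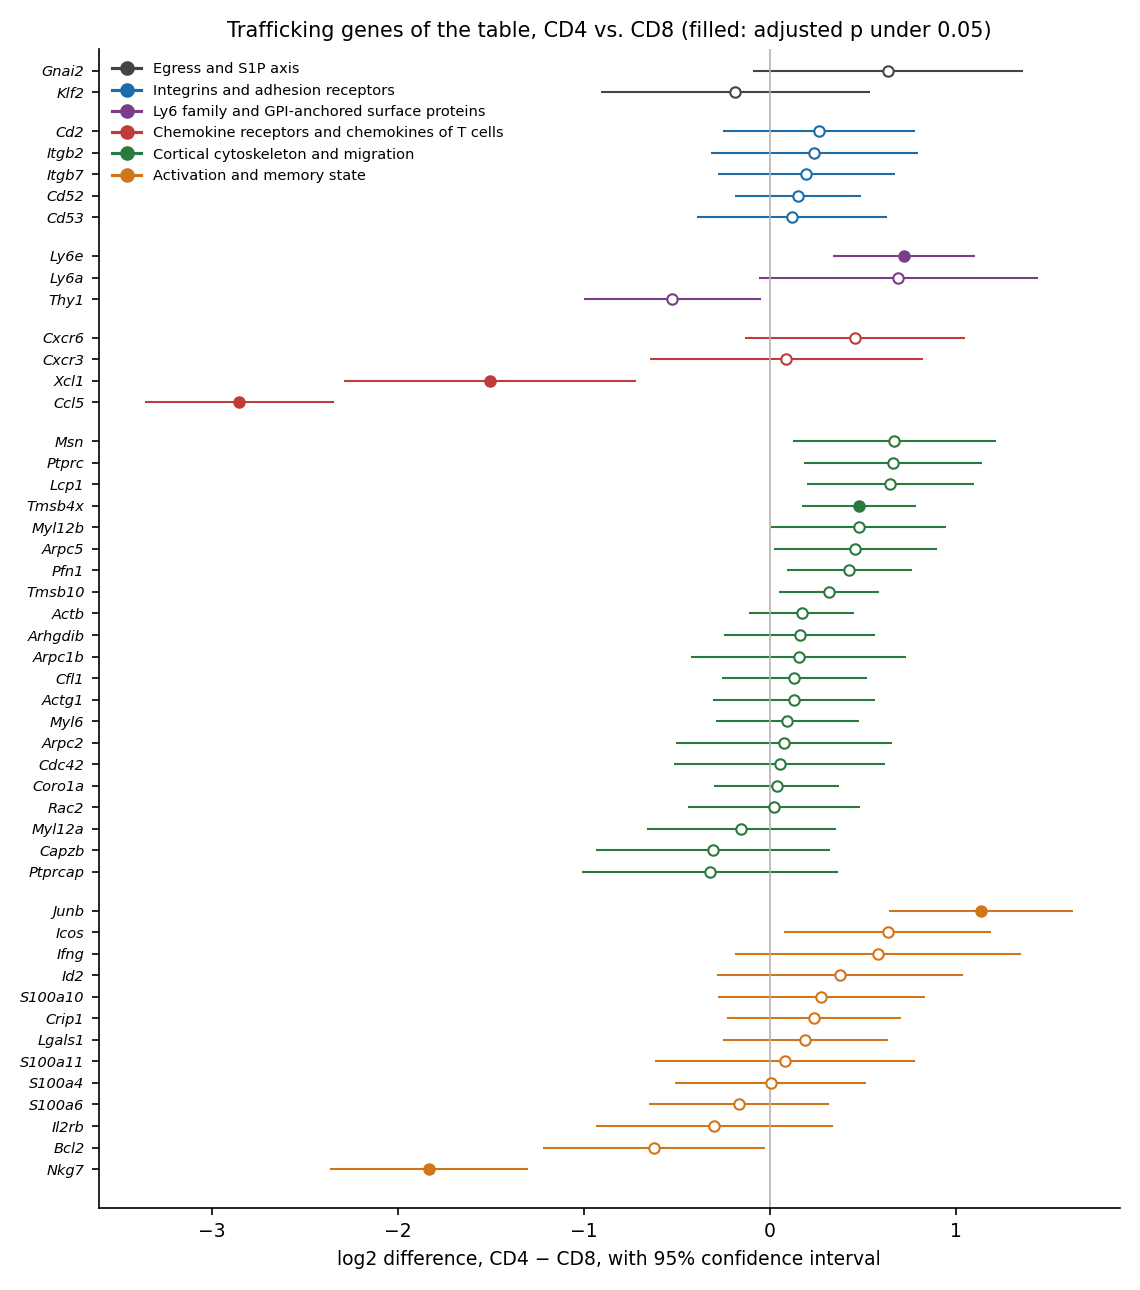
Log2 difference between CD4 and CD8 libraries, with 95% confidence intervals, for the 48 trafficking genes of the table, coloured by list and filled where the adjusted p is under 0.05. Ccl5, Nkg7 and Xcl1 lie far left of 0, Junb, Ly6e and Tmsb4x are the filled points on the right, and the integrin and egress genes lie within their intervals of 0.

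No trafficking gene was called for EE vs. SE or for the interaction. The smallest p-values in CD4 were those of Ccl5, 1.00 ± 0.407 (SE) higher in EE, and Cxcr6, 1.01 ± 0.424 (SE) higher, and in CD8 those of Cxcr3, 1.07 ± 0.492 (SE), and Arhgdib, 0.40 ± 0.203 (SE). For all of them the adjusted p was at least 0.950. Over both cell types Ccl5 differed by 0.73 ± 0.250 (SE; adjusted p 0.928) and Cxcr6 by 0.69 ± 0.292 (SE; adjusted p 0.985). In the interaction Cxcr3 had -1.90 ± 0.677 (SE) and Arhgdib had -1.03 ± 0.379 (SE), with an adjusted p of 0.976 for both. Between first title numbers 5 of the 48 were called (10.4%, against 10.7% of all genes), all lower in number 2: Pfn1, Tmsb4x, Arpc1b, Arpc5 and Arpc2, actin regulators whose differences ran from -0.64 for Tmsb4x to -1.13 for Arpc1b.

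Across the 31 libraries the genes whose values ran most closely with S1pr1 were Eno1 (Spearman rho 0.587), Cd4 (0.572) and mt.Co1 (0.571). Those closest to Cd44 were Cd4 (0.692), Ifi27l2a (0.554) and Klf6 (0.520), those closest to Ly6c2 were Rps2 (0.653), Nkg7 (0.633) and Ccl5 (0.620), and those closest to Selplg were Capzb (0.552), Eif4a.ps4 (0.546) and Ube2b (0.520). Cd4 is at 0 in all CD8 libraries. These are descriptions of 31 libraries that share cell type, depth and size factors, and the 5% of genes most like a member began at a rho of 0.364 to 0.466. Between members, rho was 0.488 between S1pr1 and Cd44 and -0.506 between Cd44 and Ly6c2, and once the mean of each group within each first title number was removed, Pearson's r was -0.10 and -0.15. After the same removal the closest genes were others: Gm9800 for S1pr1 (r 0.646), Eif4a1 for Selplg (0.710), Rps19 for Cd44 (0.730) and Cxcr6 for Ly6c2 (0.509). Between Selplg and Ly6c2, rho was -0.20 over all libraries, -0.45 over 17 CD4 libraries and -0.52 over 14 CD8 libraries, and r was -0.28 after the removal of group and number means.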

How the data were processed

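The authors removed adaptors with cutadapt, mapped reads with STAR 2.4.0a to mm10, counted UMIs per gene on a GRCm38 gene model, left out CD4 samples with Cd8a or Cd8b transcripts and normalised depth with DESeq2. The deposited signal is the UMI count divided by 1 size factor per library. The table holds a subset of genes, so its totals are not full depths. Whole UMI counts were recovered from the smallest step of each column (100% of values whole, tolerance 0.01).

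The main test was limma 3.58.1 with a variance trend on log2(value + 1), two-sided. P-values were adjusted by Benjamini-Hochberg across every gene above 0 in a library compared, with a threshold of 0.05. On this scale changes of low genes are understated. CD4 vs. CD8 carried the environment as a term, EE vs. SE was fitted within each cell type and with the cell type as a term, and the first title number with the group as a term. The script was tested on simulated data. Alternatives included edgeR 4.0.16 and DESeq2 1.42.0 on recovered counts, other pseudocounts, a filter, a common total, subsets by title number and environment, and single libraries left out.

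The environment, first title number and animal number in the titles together defined a mouse, and 10 mice gave both cell types. CD8 SE replicates 5 and 6 carry animal 5 in their titles but 5 and 6 in their descriptions, which may mean a pool. They were treated as 1 mouse in the pairs and the mouse blocks, but entered the main fits as separate libraries. An alternative without them was added after seeing the data. In the 11 pairs, the deviations from the group means had a correlation from -0.109 to 0.207, over 0.1 in 5 pairs, and with the first title number also removed in 1 pair (-0.108 to 0.268). The pairing rests on the labels, and the correlations add little to it. No 2 libraries of a group agreed within sampling noise (chi-square per degree of freedom 1.24 to 4.49 over 106 pairs). Libraries were the replicates, and p-values measure the spread between them.

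Gene positions, transcripts and the Ly6c2 and Ly6c1 sequences came from GENCODE M21 on GRCm38. The members, the gene lists and the tests were chosen with earlier results of these data known. Beside the members, a listed trafficking gene was named if its adjusted p was under 0.05, or otherwise if it had 1 of the 2 smallest p-values of a comparison, and the 3 genes most like each member were named by Spearman's rho and by the correlation of residuals. Other genes of the lists were named to complete a group after their values were seen.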

Additional observations from a re-analysis of the deposited data

Results flagged for a closer look

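Selplg was the single result flagged, because among the members only its interaction had an unadjusted p under 0.05. Its EE minus SE difference in CD4 minus that in CD8 was -1.31 on the log2 scale (95% confidence interval -2.25 to -0.38, limma unadjusted p 0.00669). It failed the adjustment over 485 genes (limma adjusted p 0.976), of which 12 (2.47%) had an unadjusted p under 0.05. The direction was the same in both first title numbers, at -1.70 and -0.82, and when each of the 31 libraries was left out in turn, from -1.43 to -1.12. These fits reuse the same libraries and add no separate evidence. No single library of any member in any of the 4 groups lay far enough from its group to be listed, over 16 groups examined.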

How the results depend on the processing

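The CD4 vs. CD8 calls of S1pr1, Cd44 and Ly6c2 held when each library was left out and with both other pseudocounts, a common total, edgeR and DESeq2, except that a mean of at least 5 could not be applied to S1pr1 and Cd44, whose means are lower. Within first title number 1 S1pr1 had 1.21 (adjusted p 0.115) and Cd44 1.00, and within number 2 Ly6c2 had -1.23, none past the threshold. Within EE the values were 0.98 for S1pr1, 1.36 for Cd44 and -0.89 for Ly6c2, and within SE 1.25 for Cd44, none called, and 0.47 for Selplg, a reversed sign. These subsets hold fewer libraries, and why their calls differed was not tested. With the mouse as a fixed block Cd44 had 1.07 (adjusted p 0.0555), with no other call of a member changed, but without the mouse whose CD8 libraries may be a pool (an alternative chosen after seeing the data) the block gave 1.55 for S1pr1, 1.19 for Cd44 and -1.43 for Ly6c2, none called (adjusted p 0.0537 to 0.0796). With the mouse as a random block all 3 calls held, and they also held with CD8 SE replicates 5 and 6 averaged into 1 library. The CD4 vs. CD8 count of 36 genes became 14 with a mean of at least 5, 55 with DESeq2, 20 within either number, 23 with the fixed mouse block (13 without the possible pool), 7 within EE and 14 within SE. For EE vs. SE 1 gene was called in CD4 with a pseudocount of 4, edgeR or DESeq2, and 1 within number 1 in CD8 and over both cell types.

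Uncalled differences near 0 changed sign. In CD4, number 2 gave 0.071 for S1pr1 and 0.20 for Cd44, and leaving out single libraries gave -0.31 to 0.016 and -0.17 to 0.10. In CD8, Ly6c2 had 0.080 with edgeR and 0.056 with DESeq2 (-0.32 to 0.10 with single libraries left out), Cd44 had 0.018 with the number as a term and 0.70 within number 1 (-0.39 to 0.051), and S1pr1 had -0.29 within number 2. Over both cell types Cd44 had 0.18 within number 1, and S1pr1 -0.10 and Selplg 0.16 within number 2. The interaction was -0.88 for Cd44 within number 1 (-0.10 to 0.34 with single libraries left out) and 0.36 for S1pr1 within number 2. For the first title number, edgeR and DESeq2 gave -1.01 and -1.13 for S1pr1 and called 90 and 104 genes. The cause of these changes was not tested. Over the 31 libraries S1pr1 had 108 UMIs, Cd44 152, Selplg 325 and Ly6c2 416.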
